A study of Bos taurus with 12 samples.

Results

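The genes described here build and run the secretory route, and were chosen by symbol. They are the RAB, SEC, TMED, SSR, SRP, SPCS and ARF families, and the COPI coat subunits named COPA to COPZ2. Subunits of the adaptor complexes AP1 to AP4 were taken where B, D, E, G, M or S follows the complex number. The COPI subunit ARCN1 is counted among other genes of the route. A symbol had to begin with the family name and a number, so RAB effectors such as RAB11FIP5 and the lipid binding gene SEC14L1 were included. Of 117 such genes on the array, 102 were measured, meaning that a probe set (the group of oligonucleotides that reads a transcript) had a log2 value above 4 on at least 3 of the 12 arrays. They are 36 RAB, 18 SEC, 16 adaptor, 9 TMED, 7 COPI, 5 SRP, 4 SSR, 4 ARF and 3 SPCS genes, out of 6781 measured genes in all. Each gene was read by its kept probe set with the highest mean.

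Endometrium, the lining of the uterus, had been biopsied from Simmental heifers during the cycle that preceded an embryo transfer, and its RNA was hybridised to an Affymetrix bovine expression array. NPd7 and NPd14 are biopsies of day 7 and day 14 of that cycle from heifers in which the transfer led to no pregnancy and heat returned. CDd7 and CDd14 are biopsies of day 7 and day 14 from heifers that carried the transferred embryo to the delivery of a calf. Every group had 3 arrays, and each array carried RNA of a pool of biopsies. The sources used here do not give the heifers per pool, their age, or whether the same heifers gave the day 7 and day 14 tissue. No heifer was pregnant when sampled, no treatment is named, and the p-values measure the spread between these pools.

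Proteins bound for secretion or for membranes are picked up at the ribosome by the signal recognition particle (SRP), pass into the endoplasmic reticulum (ER) through the SEC61 channel, and lose their signal peptide to the signal peptidase. COPII coated vesicles carry them on to the Golgi, COPI coated vesicles return material to the ER, and p24 proteins of the TMED family act as cargo receptors between the compartments. RAB GTPases direct vesicles to their targets, and adaptor complexes sort cargo at the Golgi, endosomes and cell surface. Uterine glands and surface epithelium secrete the fluid that feeds the early ruminant embryo, so the epithelium leans heavily on this route.

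The median log2 value of an array was 4.89 to 5.06, and arrays of a group correlated with each other at 0.921 to 0.988 over the kept probe sets. Arrays of different groups correlated at 0.862 to 0.981, a range that overlaps the one within groups. NPd14 pool 3 stood apart: its mean over all genes was 0.14 below the mean of the 12 arrays, against deviations from -0.02 to 0.05 on the other 11. Epithelial markers (12 of 16 listed genes measured) had mean deviations of -0.21 to -0.15 in the CDd7 pools, 0.088 to 0.37 in CDd14, -0.19 to -0.084 in NPd7 and -0.098 to 0.23 in NPd14. Between days in CD 11 of these 12 had a value above 0, with a median of 0.36, and 3 rose (25%, against 9.87% of all genes). Stromal fibroblast markers (12 of 18 measured) lay at 0.98 to 2.21 above their overall mean in the NPd7 pools and at -1.76 to -0.46 in the CDd7 pools, with -0.49 to 0.97 in NPd14 and -1.0 to -0.23 in CDd14. T and NK cell markers (9 of 16 measured) averaged 0.41 in NPd7 and -0.79 in CDd7. At day 7, 3 of the 9 were lower in CD (33.3%, against 2.02% of all genes). At day 14 the 9 markers averaged 0.22 in NPd14 and 0.16 in CDd14. Of lists with few measured genes, the endothelial marker CLDN5 (1 of 8) was higher in CD at day 7 by 2.37 and fell between days in CD (-4.48), and the smooth muscle marker MYLK (1 of 7) was lower in CD at day 7 by a log2 value of -3.23. Both plasma and B cell markers measured (2 of 11) had negative day 7 values (median -2.84) that did not pass, and neither did the 5 myeloid and 2 ciliated cell markers in any comparison. The signal of 3′ over 5′ probe sets of endogenous control genes, which grows as RNA or its copy shortens, was lowest in CDd7 at a mean log2 difference of 1.65 and highest in NPd14 at 2.32, with 1.94 in NPd7 and 1.97 in CDd14. Control transcripts added to the samples were likewise lowest in CDd7 (4.27) and highest in NPd14 (4.90), with 4.54 in NPd7 and 4.70 in CDd14. A part of the processing in the group differences was not tested.

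The comparison of day 14 with day 7 in the heifers that later delivered a calf gave most of the calls. Of the 102 members, 20 fell (19.6%) and 3 rose (2.94%) in CD with an adjusted p under 0.05 in limma, while 14.2% of all measured genes fell and 9.87% rose. In either direction 22.5% of the members passed, no larger a share than the 24.1% of all genes, and 79 members did not pass. The fallen genes came from 7 of the 9 families: 5 SEC genes (SEC61G, SEC61A1, SEC61A2, SEC31A, SEC22B), 6 RAB genes (RAB9B, RAB8B, RAB4B, RAB22A, RAB28, RAB3IP), 4 adaptor subunits (AP1S2, AP3M1, AP3S2, AP4M1), COPE and COPB1, SRP14, TMED4 and ARF1. RAB3D, RAB27A and RAB31 rose. All CDd14 pools lay below all CDd7 pools for 39 members and above them for 7, where 22.8% and 22.1% of all genes did so. The median member difference was -0.20 on the log2 scale, against -0.0042 for all genes.

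At day 7, 2 members were higher in CD than in NP and 1 was lower: RAB9B and SEC61A2 were higher and COPZ2 was lower. Shares of 1.46% of all genes higher and 2.02% lower are the background for these counts. The CDd7 pools lay above all NPd7 pools for 24 members and below them for 11, where 16.7% and 18.6% of all genes did so. In either direction 2.94% of the members passed, against 3.48% of all genes. At an unadjusted p under 0.05 in limma there were 23 members (22.5%), a smaller share than the 30.4% of all genes. The median member difference was 0.15, with 68 values above 0 and 34 below, and -0.01 over all genes. This comparison and the day comparison in CD share the 3 CDd7 arrays, so their values are not independent of each other. The CDd7 group had the highest of the 4 means for 60 of 102 members (58.8%) and for 37.6% of all genes.

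**Figure D1:**
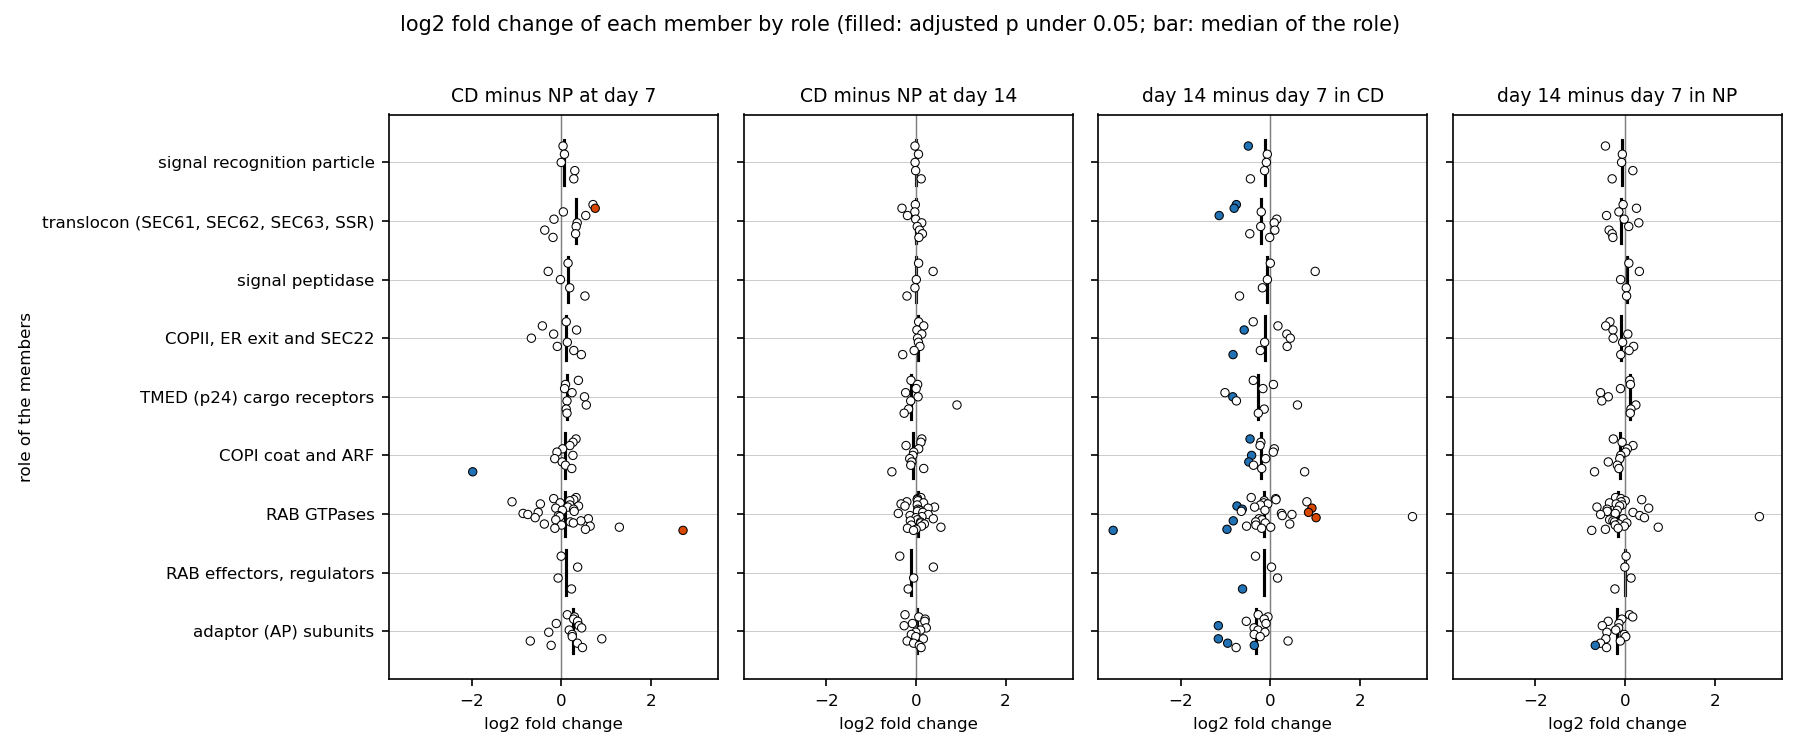
Log2 fold change of each of the 102 members except SEC14L1 (x axis) by the role of its protein (rows), in 4 comparisons (panels). Points filled in orange were higher and points filled in blue lower with an adjusted p under 0.05 in limma, open points did not pass, and the black bar is the median of the role. Most filled points stand in the day comparison in CD, on its lower side.

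Targeting of the ribosome to the ER rests on the SRP genes, of which 1 of 5 fell between days in CD (20%, against 14.2% of all genes). SRP14, which with SRP9 forms the part of the particle that slows translation, read 12.90, 12.69 and 12.81 in CDd7 and 12.25, 12.43 and 12.25 in CDd14. In NP it read 12.86, 12.77 and 12.66 at day 7 and 12.35, 12.55 and 12.08 at day 14. All day 14 pools were below all day 7 pools in both outcomes. SRP14 fell in CD by 0.49 on the log2 scale (SE 0.14, 1.41-fold, adjusted p = 0.0283), and the NP difference of -0.43 did not pass (adjusted p = 0.183). The other SRP genes did not pass in any comparison. SRP9 differed by -0.44 between days in CD (adjusted p = 0.104) and SRP72 by 0.30 between outcomes at day 7 (adjusted p = 0.173), where a further SRP72 probe set gave -0.01. The SRP14 call was lost without any of 5 arrays, the 3 CDd7 pools and CDd14 pools 1 and 3, with adjusted p up to 0.0873.

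The SEC61 channel, through which the growing chain crosses the membrane, held 3 of the fallen genes. SEC61G, its small gamma subunit, read 14.58, 14.33 and 14.07 in CDd7 and 13.18, 13.32 and 13.06 in CDd14. The NP pools read 13.84, 14.06 and 13.45 at day 7 and 13.36, 13.72 and 13.04 at day 14. The CD pools of the 2 days were far apart while those of NP overlapped. SEC61G fell in CD by 1.14 (SE 0.21, 2.21-fold, adjusted p = 0.00668). The gamma subunit stayed past the threshold with any of the 12 arrays left out.

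The alpha subunit forms the pore itself and is encoded by a pair of genes, SEC61A1 and SEC61A2. SEC61A2 read 9.49, 9.52 and 8.88 in CDd7, 8.49, 8.62 and 8.51 in NPd7, 8.78, 8.97 and 8.64 in NPd14 and 8.64, 8.41 and 8.42 in CDd14. CDd7 pools 1 and 2 were highest, pool 3 lay among the day 14 NP pools, and no CDd7 pool overlapped NPd7 or CDd14. SEC61A2 was 1.69-fold higher in CD at day 7 (0.76, SE 0.17, adjusted p = 0.0452) and fell by 0.81 between days in CD (SE 0.17, adjusted p = 0.0109). The day 7 call was lost without any of 8 arrays (adjusted p up to 0.183), namely NPd7 pools 1 and 3, CDd7 pools 1 and 2, NPd14 pool 1 and each CDd14 pool, while the day call held with each array left out. Its second kept probe set gave 1.16 at day 7 (adjusted p = 0.103) and -1.75 between days in CD (adjusted p = 0.0154).

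SEC61A1 read 11.89, 11.73 and 11.32 in CDd7, 10.67, 11.10 and 10.89 in CDd14, 10.77, 11.22 and 10.82 in NPd7 and 10.77, 11.20 and 10.73 in NPd14. The CDd7 pools were above all other pools, and the other 3 groups overlapped one another. SEC61A1 fell between days in CD by 0.76 (SE 0.20, adjusted p = 0.0243), a call lost without CDd7 pool 1 or 2 or CDd14 pool 1 or 3 (adjusted p up to 0.0857). Its outcome difference of 0.71 at day 7 did not pass (adjusted p = 0.0662).

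SEC61B, the beta subunit, did not pass in any comparison and had group means of 13.47 ± 0.22 in CDd7, 13.26 ± 0.06 in CDd14, 13.42 ± 0.10 in NPd7 and 13.28 ± 0.07 in NPd14 (SD, n = 3). Its CD day difference of -0.20 did not pass (adjusted p = 0.259). SEC62 and SEC63, which serve chains that enter after translation, gave day differences in CD of 0.14 and 0.09 (adjusted p = 0.591 and 0.820).

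The 4 SSR genes encode the TRAP complex that sits beside the channel, and none of them passed in any comparison. SSR1 read 13.34, 13.42 and 13.53 in CDd7 and 13.11, 13.15 and 13.04 in NPd7, a difference of 0.33 (adjusted p = 0.0922). SSR2 ran the other way, with 13.28, 12.99 and 13.10 in CDd7 against 13.56, 13.38 and 13.54 in NPd7, a difference of -0.37 (adjusted p = 0.0729). SSR4 differed by -0.18 and SSR3 by 0.32, and a further probe set of SSR3 gave -0.55, so members of the complex had values of both signs.

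The signal peptidase genes did not pass either. SEC11A, a catalytic subunit, stayed between 12.81 and 13.56 on all arrays, and SPCS1 between 12.70 and 12.97. SPCS3 differed by -0.69 between days in CD (adjusted p = 0.132) and by 0.53 between outcomes at day 7 (adjusted p = 0.277). SEC11C, the other catalytic subunit, read 11.15, 10.50 and 10.25 in CDd7 and 12.10, 11.46 and 11.34 in CDd14, a day difference of 1.0 with an adjusted p of 0.106. In NPd14 it was spread from 10.31 in pool 3 to 12.18 in pool 2.

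Among genes of the COPII coat and ER exit, 2 of 9 fell in CD (22.2%, against 14.2% of all genes). SEC31A, the outer cage of the COPII vesicle, read 13.86, 13.81 and 13.63 in CDd7 and 12.88, 12.99 and 12.94 in CDd14. In NP it read 13.23, 13.66 and 13.08 at day 7 and 13.03, 13.42 and 13.24 at day 14. The CDd14 pools were tight and below every other pool, and the NP days overlapped. SEC31A fell in CD by 0.83 (SE 0.16, 1.78-fold, adjusted p = 0.00755), also with any of the 12 arrays left out.

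SEC22B, a SNARE that fuses vesicles between ER and Golgi, fell in CD by 0.58 (SE 0.19, adjusted p = 0.0465), from 11.81, 11.23 and 11.27 to 10.75, 10.97 and 10.84. That call was lost in 9 of the 12 fits with an array left out (adjusted p up to 0.132) and held only without NPd7 pool 3, CDd7 pool 3 or NPd14 pool 2. The inner coat genes did not pass: SEC23A differed by 0.44 in CD between days (adjusted p = 0.168) and by -0.67 between outcomes at day 7 (adjusted p = 0.0914). SEC24C had a day 7 outcome difference of 0.28 and SEC24B of -0.09, and SEC13, which pairs with SEC31A, had a day difference of -0.38 in CD (adjusted p = 0.120). A second probe set of SEC23IP passed between days in CD at -0.95 (adjusted p = 0.0475), where the brighter one gave -0.13.

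In the TMED family 11.1% fell between days in CD, a smaller share than the 14.2% of all genes. Of the 9 TMED genes, TMED4 passed. It read 12.66, 12.93 and 12.41 in CDd7, 12.13, 12.32 and 12.003 in NPd7, 11.82, 12.04 and 11.47 in NPd14 and 11.85, 11.78 and 11.86 in CDd14. CDd7 was above all other groups without overlap, and the 2 day 14 groups overlapped. TMED4 fell in CD by 0.84 (SE 0.17, 1.79-fold, adjusted p = 0.00967), in all 12 fits with an array left out, and its day 7 outcome difference of 0.52 did not pass (adjusted p = 0.0915). All 9 TMED values were above 0 at day 7, from 0.07 for TMED2 to 0.56 for TMED6, and 0 of them passed. Over all genes 3303 of 6781 values were above 0 in that comparison. TMED3 differed by -1.01 between days in CD (adjusted p = 0.0588), with CDd7 pools spread from 10.03 to 11.27. TMED10, the p24 protein that COPI binds, stayed between 13.31 and 13.61 on all 12 arrays by its brighter probe set. A second probe set gave -0.58 between days in CD, with the pools apart, and 0.46 at day 7. Neither value passed (adjusted p = 0.0776 and 0.181).

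The COPI coat gave the member that was lower in CD at day 7. COPZ2, an alternative zeta subunit of the coat, read 6.94, 5.28 and 6.65 in CDd7 against 8.34, 7.80 and 8.66 in NPd7. At day 14 it read 6.75, 7.22 and 7.20 in CD and 7.37, 7.38 and 8.02 in NP. The CD pools were below the NP pools on each day without overlap. COPZ2 was 3.93-fold lower in CD at day 7 (-1.98, SE 0.40, adjusted p = 0.0371), and the day 14 difference of -0.53 did not pass (adjusted p = 0.846). The day 7 call was lost without any of 7 arrays, NPd7 pools 1 and 3, CDd7 pool 2, NPd14 pool 1 and each CDd14 pool, with adjusted p up to 0.160. The stromal markers, of which 8 of 12 were lower in CD at day 7 (66.7%, against 2.02% of all genes), and MYLK were lower in the same group. Their part in the COPZ2 value was not tested, and in bulk tissue fewer cells of a type and less RNA per cell cannot be told apart.

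COPZ1, the other zeta gene, had a day 7 value of 0.23 (adjusted p = 0.292), with CDd7 pools at 10.55, 10.32 and 10.49 and NPd7 pools at 10.24, 10.25 and 10.17. Of the other coat subunits, COPE (epsilon), fell between days in CD by 0.48 (SE 0.15, adjusted p = 0.0468), from 10.85, 10.80 and 10.56 to 10.16, 10.45 and 10.16. COPB1, the beta subunit, fell by 0.42 (SE 0.14, adjusted p = 0.0484), from 11.85, 11.64 and 11.52 to 11.26, 11.23 and 11.26. The COPE call was lost in 8 and the COPB1 call in 9 of the 12 fits with an array left out, with adjusted p up to 0.138 and 0.139. COPA and COPB2 had day differences of 0.07 and -0.11 in CD, and COPG1 of -0.38 (adjusted p = 0.0616).

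ARF1, the GTPase that recruits both COPI and AP1 to membranes, read 13.13, 13.44 and 13.38 in CDd7 and 12.79, 12.88 and 12.92 in CDd14. It fell by 0.45 (SE 0.14, adjusted p = 0.0427), was lost in 9 of the 12 fits with an array left out (adjusted p up to 0.145), and a second probe set of ARF1 gave 0.02 (adjusted p = 0.862). The fall of ARF1 is therefore seen by 1 of its 2 probe sets. ARF2, ARF3 and ARF4 did not pass, with CD day differences of -0.21, -0.23 and 0.09.

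**Figure D2:**
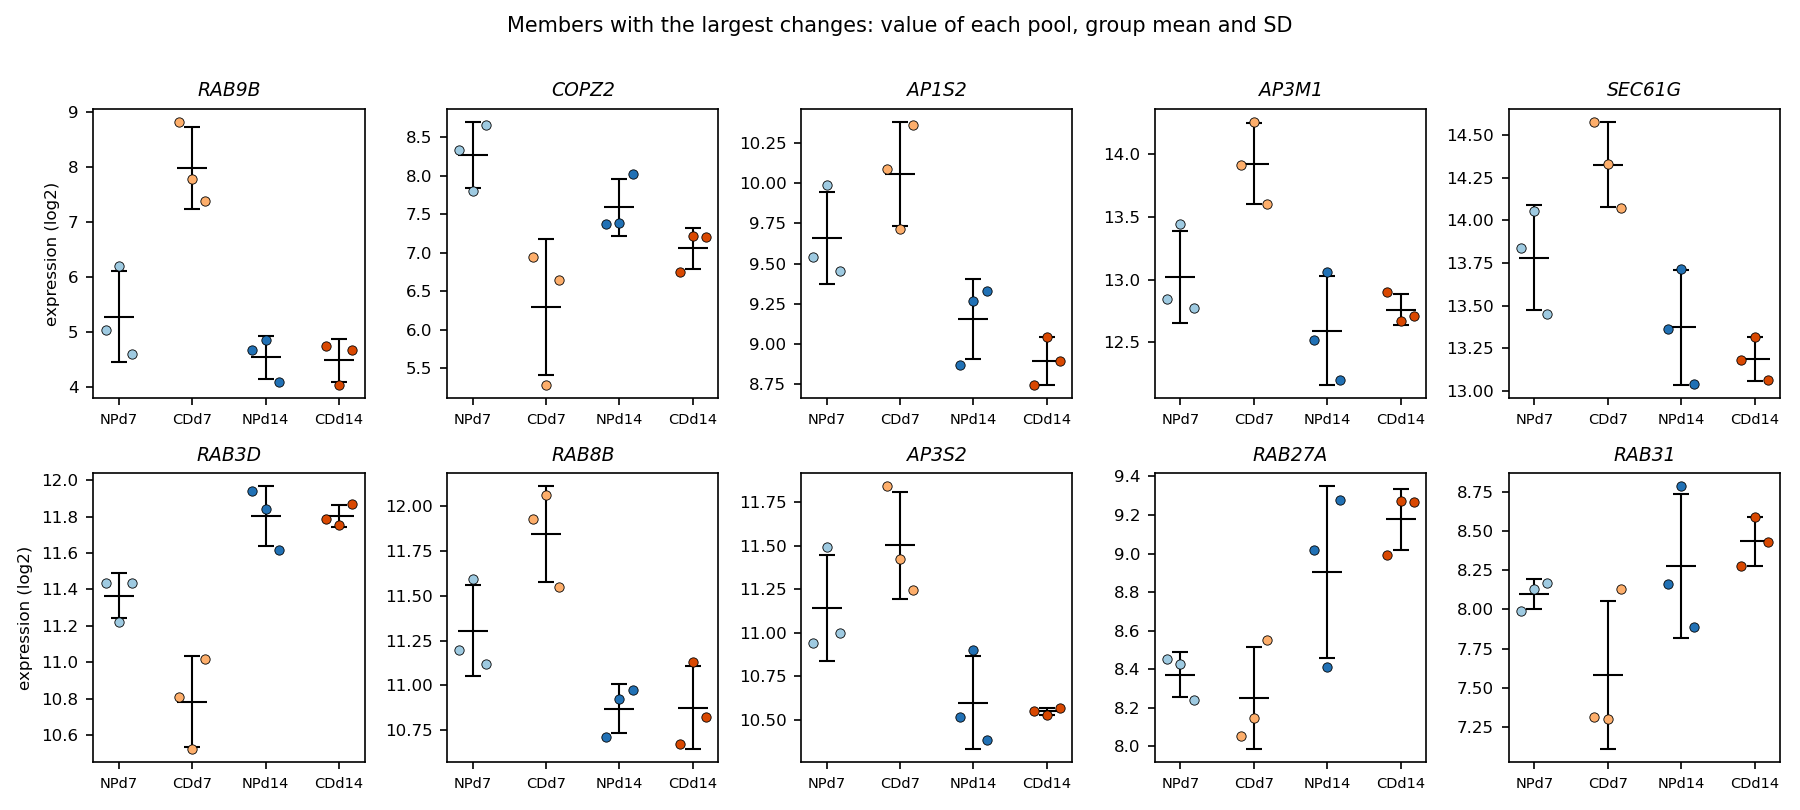
Log2 expression (y axis, range set per gene) of the 10 members with the largest differences past the threshold, in the 4 groups. Points are the 3 pools of a group, the long dash is their mean and the bars are 1 SD. RAB9B, AP3M1, SEC61G and RAB8B have their highest mean in CDd7, and COPZ2 and RAB3D their lowest.

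RAB9B had the largest fold change of the members past the threshold, at day 7 as well as between days in CD. RAB9 proteins return receptors from late endosomes to the Golgi. RAB9B read 8.82, 7.78 and 7.38 in CDd7, 5.04, 6.19 and 4.60 in NPd7, 4.66, 4.86 and 4.09 in NPd14 and 4.75, 4.04 and 4.67 in CDd14. The CDd7 pools were far above all other pools, and the day 14 pools lay just above the log2 value of 4 that a probe set had to pass. It was 6.57-fold higher in CD at day 7 (2.72, SE 0.46, adjusted p = 0.0270) and 11.4-fold lower at day 14 than at day 7 in CD (-3.51, SE 0.46, adjusted p = 0.00253). The day 7 call was lost without NPd7 pool 1 or 3, CDd7 pool 2 or CDd14 pool 3 (adjusted p up to 0.119), and the day call held in all 12 fits.

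RAB8B, which drives vesicles to the plasma membrane, fell in CD by 0.97 (SE 0.19, 1.96-fold, adjusted p = 0.00735). Its pools read 11.93, 12.06 and 11.55 in CDd7, 10.68, 11.13 and 10.82 in CDd14, 11.20, 11.60 and 11.12 in NPd7 and 10.71, 10.93 and 10.97 in NPd14. Both outcomes were lower at day 14 without overlap, and the NP difference of -0.43 did not pass (adjusted p = 0.288). RAB8A, its close relative, had a CD day difference of -0.19 (adjusted p = 0.363). A second RAB8A probe set gave -0.36 with the pools apart (adjusted p = 0.0568). RAB3IP, the exchange factor that switches RAB8 proteins on, fell by 0.62 (SE 0.14, adjusted p = 0.0115), from 10.37, 10.48 and 10.09 to 9.70, 9.62 and 9.75, and lost its call without CDd7 pool 2 (adjusted p = 0.0509).

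RAB22A and RAB4B, which work on endosomes, were among the fallen genes, as was RAB28. RAB22A, which works on early and recycling endosomes, fell by 0.74 (SE 0.14, 1.68-fold, adjusted p = 0.00765), from 8.83, 8.74 and 8.29 in CDd7 to 7.88, 7.89 and 7.85 in CDd14. RAB4B, of the fast recycling pathway, fell by 0.83 (SE 0.19, adjusted p = 0.0144), from 7.64, 8.15 and 7.68 to 7.09, 6.86 and 7.04, and lost its call without CDd7 pool 2 (adjusted p = 0.0581). RAB28 fell by 0.63 (SE 0.17, adjusted p = 0.0255), with CDd7 pool 1 at 9.94 and the others at 9.30 and 9.44 against 9.12, 8.97 and 8.71 in CDd14. The RAB28 call was lost without CDd7 pool 1, CDd14 pool 2 or CDd14 pool 3 (adjusted p up to 0.0912). RAB4A, RAB5A, RAB5B, RAB5C, RAB11A and RAB11B, the best known endosomal members, did not pass, with CD day differences from -0.43 for RAB11A to 0.43 for RAB5C. RAB7A of late endosomes gave -0.53 (adjusted p = 0.0897), and its second probe set passed at -0.64 (adjusted p = 0.0461). A second probe set of RAB6A passed as well, at -1.17 (adjusted p = 0.0191), where its brighter one did not.

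The 3 risen genes include a pair that serve regulated secretion. RAB3D, found on secretory granules, read 10.81, 10.52 and 11.02 in CDd7 and 11.79, 11.75 and 11.87 in CDd14, with 11.44, 11.22 and 11.44 in NPd7 and 11.94, 11.84 and 11.62 in NPd14. CDd7 was below every other pool, and day 14 was above day 7 in both outcomes without overlap. RAB3D rose in CD by 1.02 (SE 0.15, 2.03-fold, adjusted p = 0.00287), in all 12 fits with an array left out. Its day 7 outcome difference of -0.58 (adjusted p = 0.0528) and its NP day difference of 0.44 (adjusted p = 0.201) did not pass.

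RAB27A, which docks granules and exosome-bearing endosomes at the plasma membrane, read 8.05, 8.15 and 8.55 in CDd7 and 8.99, 9.27 and 9.26 in CDd14. It rose by 0.93 (SE 0.22, adjusted p = 0.0152), a call lost without CDd7 pool 2 or CDd14 pool 3 (adjusted p up to 0.0600), and its second probe set gave 0.31 (adjusted p = 0.40). RAB31, of Golgi and endosome traffic, rose by 0.85 (SE 0.26, adjusted p = 0.0408), from 7.31, 7.30 and 8.13 to 8.28, 8.59 and 8.43. The RAB31 call was lost in 9 of the 12 fits with an array left out (adjusted p up to 0.145).

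RAB3B, a relative of RAB3D, was below the filter of log2 4 on every day 7 array, between 1.99 and 2.24. At day 14 it read 7.57, 3.92 and 4.34 in CD and 6.19, 6.97 and 2.25 in NP. NPd14 pool 3 was at the day 7 level and the other day 14 pools were above it, from 3.92 to 7.57. The day differences of 3.17 in CD and 3.0 in NP did not pass (SE 1.17, adjusted p = 0.0741 and 0.255). RAB7B read 6.70, 7.82 and 6.65 in CDd7 and 5.26, 6.33 and 5.69 in NPd7, a difference of 1.30 (adjusted p = 0.244). It was lowest of all in NPd14 pool 3, at 4.92, and highest in CDd14 pool 1, at 8.30. RAB15 had an outcome value of -1.10 at day 7 with overlapping pools (adjusted p = 0.147), and RAB33B of -0.85 with pools apart (adjusted p = 0.0701).

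**Figure D3:**
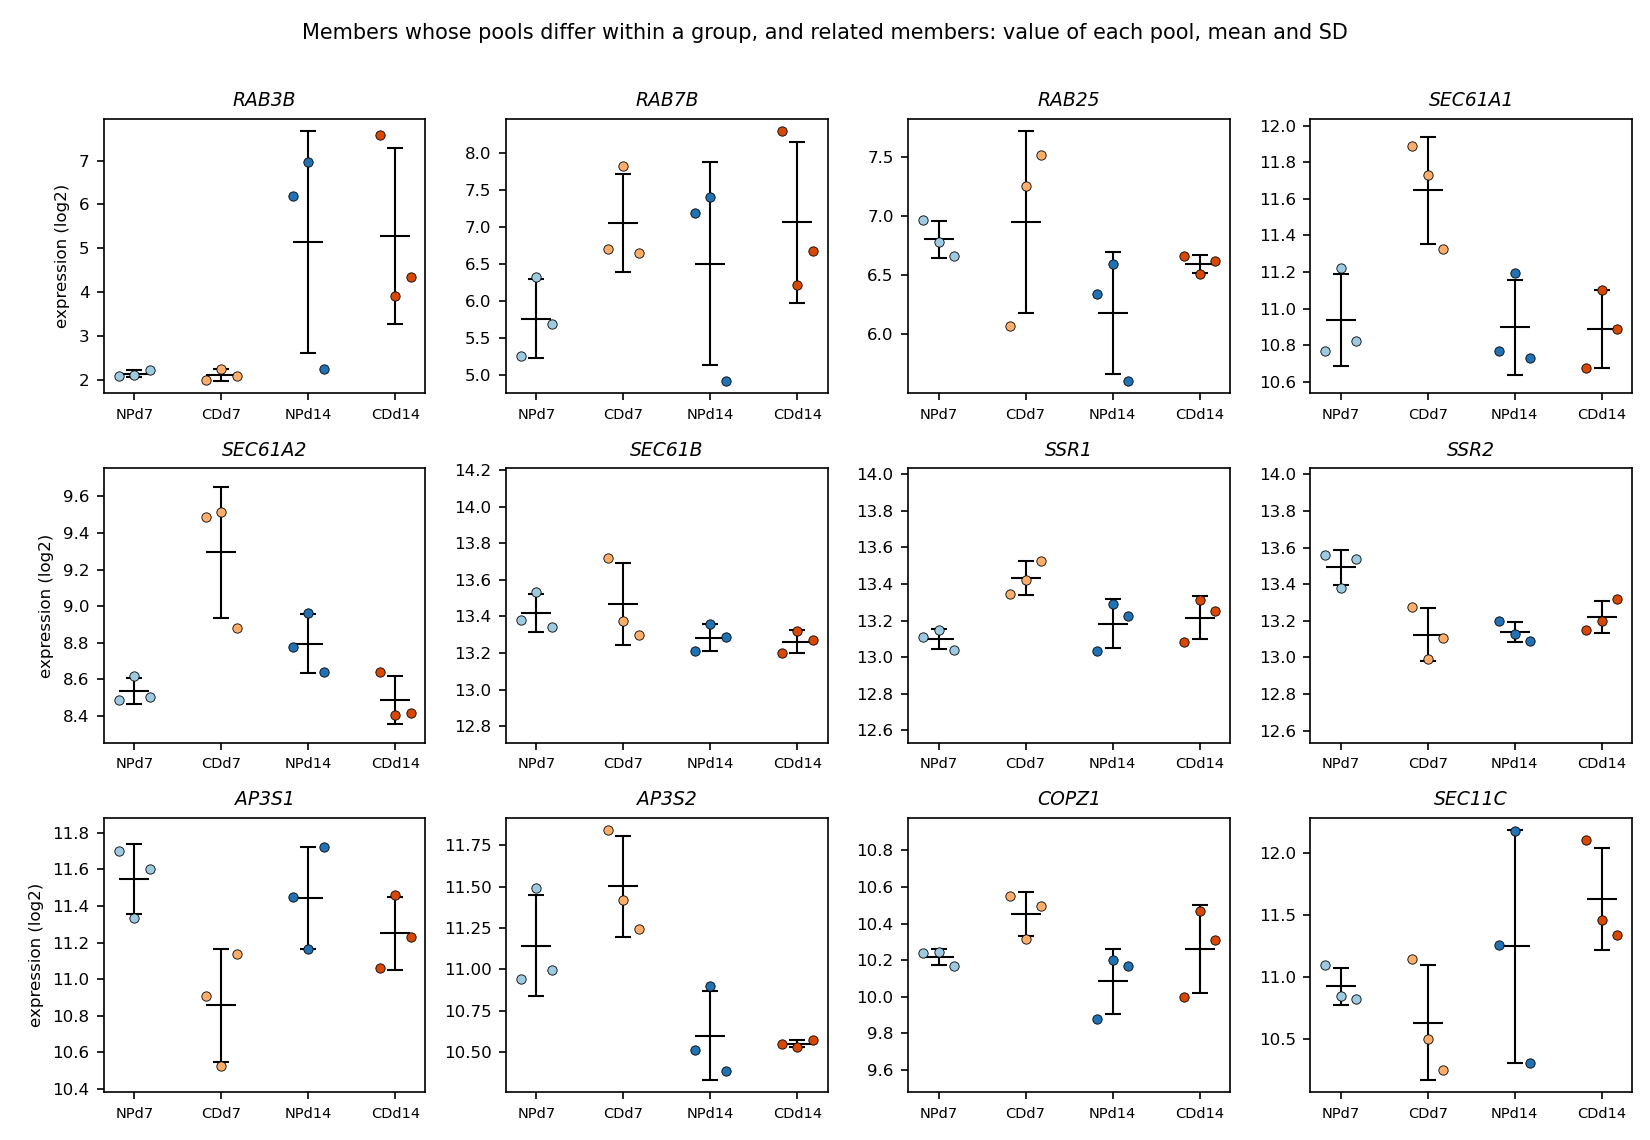
Log2 expression (y axis, range set per gene) of members whose pools were widely spread within a group and of members set beside a relative in the text, in the 4 groups. Points are pools, the long dash is the mean and the bars are 1 SD. RAB3B lies between 1.99 and 2.25 on all day 7 arrays and in NPd14 pool 3, and SEC61A1 and SEC61A2 are highest in CDd7 while SEC61B is level.

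Of the 16 adaptor subunits 4 fell between days in CD (25%, against 14.2% of all genes). A value below 0 was found for 15 of them, with a median of -0.32. Over all genes 3418 of 6781 values were below 0, with a median of -0.0042. AP1S2, a small subunit of the complex that works between Golgi and endosomes, read 10.09, 9.72 and 10.36 in CDd7, 8.75, 9.05 and 8.89 in CDd14, 9.54, 9.99 and 9.45 in NPd7 and 8.87, 9.27 and 9.33 in NPd14. Day 14 was below day 7 without overlap in both outcomes. AP1S2 fell in CD by 1.16 (SE 0.21, 2.23-fold, adjusted p = 0.00580), in all 12 fits with an array left out, and its second probe set fell by 1.83 (adjusted p = 0.0496). The NP difference of -0.50 did not pass (adjusted p = 0.272).

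AP3 carries cargo from endosomes toward lysosomes, and a medium and a small subunit of it fell. AP3M1 read 13.91, 14.25 and 13.60 in CDd7, 12.84, 13.44 and 12.77 in NPd7, 12.52, 13.06 and 12.20 in NPd14 and 12.90, 12.67 and 12.71 in CDd14. The CDd7 pools were above all others. AP3M1 fell in CD by 1.16 (SE 0.26, 2.23-fold, adjusted p = 0.0118) and lost that call without CDd7 pool 2 (adjusted p = 0.0525). Its day 7 outcome difference of 0.90 did not pass (adjusted p = 0.0647).

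AP3S2 read 11.84, 11.42 and 11.24 in CDd7 and 10.55, 10.53 and 10.57 in CDd14. It fell by 0.95 (SE 0.20, 1.94-fold, adjusted p = 0.0104), in all 12 fits with an array left out, and its NP value was -0.54 with no overlap of the pools (adjusted p = 0.234). A second probe set of AP3S2 fell in CD by 2.08 (adjusted p = 0.00156) and was higher in CD at day 7 by 1.83 (adjusted p = 0.0115), where the brighter one gave 0.36 (adjusted p = 0.254). AP3S1, which encodes the alternative small subunit, had values of the opposite sign. It read 10.91, 10.53 and 11.14 in CDd7 and 11.70, 11.34 and 11.60 in NPd7. Its values of -0.69 at day 7 (adjusted p = 0.0679) and 0.39 between days in CD (adjusted p = 0.169) did not pass. AP3B1 did not pass by its brighter probe set (-0.36 between days in CD, adjusted p = 0.114) and passed by the other, at -1.23 between days in CD (adjusted p = 0.0178) and 1.31 at day 7 (adjusted p = 0.0452).

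AP4M1, the medium subunit of the AP4 complex at the Golgi, was the member past the threshold in NP between days. It read 8.64, 8.68 and 8.65 in NPd7, 8.05, 8.05 and 7.90 in NPd14, 8.30, 8.44 and 8.57 in CDd7 and 8.06, 8.20 and 7.97 in CDd14. Day 14 was below day 7 in both outcomes without overlap. AP4M1 fell in NP by 0.66 (SE 0.11, 1.58-fold, adjusted p = 0.0456) and in CD by 0.36 (SE 0.11, adjusted p = 0.0405). With the pool number as a replicate block, the NP call was lost (adjusted p = 0.0718). The NP call held with NPd14 pool 2 or NPd14 pool 3 left out and was lost without any of the other 10 arrays (adjusted p up to 0.213). The CD call held in 4 of the 12 fits (adjusted p up to 0.131). AP2 sorts cargo for uptake at the cell surface, and those of its subunits that are members did not pass. AP2B1, AP2M1 and AP2S1 had CD day differences of -0.36, -0.28 and -0.12.

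**Figure D4:**
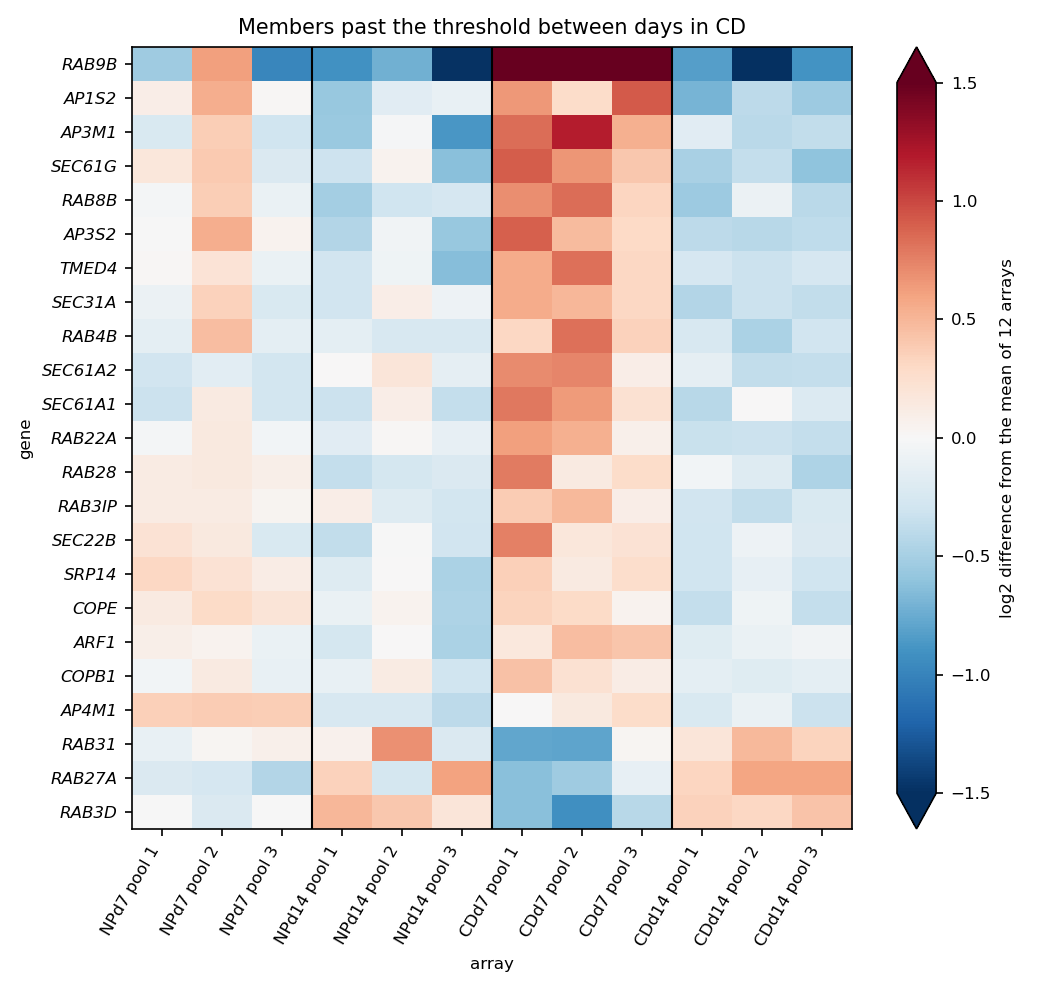
Log2 difference of each array (columns, 3 pools per group) from the mean of the 12 arrays, for the 23 members past the threshold between days in CD (rows, from the largest fall to the largest rise). Red is above and blue below the mean, and values beyond 1.5 are drawn at the end of the scale. The CDd7 columns are mostly red for the fallen genes and blue for RAB3D, RAB27A and RAB31.

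Of the 23 calls in CD, 10 held with any of the 12 arrays left out: RAB9B, RAB8B, RAB22A, RAB3D, SEC61G, SEC61A2, SEC31A, TMED4, AP1S2 and AP3S2. A further 3 lost the call without CDd7 pool 2 alone, and 10 lost it without 2 or more arrays in turn. The count of members past the threshold was 11 without CDd7 pool 2, 15 without CDd14 pool 1 and 13 without CDd14 pool 3, and ran from 17 to 26 without any other array. At day 7 it was 0 without NPd7 pool 1, NPd7 pool 3, CDd7 pool 2 or CDd14 pool 3, 1 without CDd14 pool 1, CDd14 pool 2 or NPd14 pool 1, and 2 without CDd7 pool 1. It was 5 without NPd14 pool 2 or 3, 7 without CDd7 pool 3 and 11 without NPd7 pool 2. Counted by probe sets in place of genes, 30 of 128 fell (23.4%) and 3 rose (2.34%) between days in CD, where 12.4% of all kept probe sets fell and 11.6% rose. The epithelial marker levels were higher in all CDd14 pools than in all CDd7 pools, CLDN5 was lower, and the 3′ to 5′ values differed too. All 9 T and NK cell markers had a day value above 0 in CD (median 0.77), and 2 rose (22.2%). Of 12 stromal markers 9 had a value above 0 (median 0.24), and 2 rose (16.7%). Of all genes 9.87% rose. The part of these marker and 3′ to 5′ differences in the counts was not tested.

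In NP the same days gave 1 fallen member and 0 risen ones, with 15 (14.7%; 16.5% of all genes) at an unadjusted p under 0.05. Of all genes 0.0737% fell and 0.059% rose. The NPd14 pools lay below all NPd7 pools for 17 members and above them for 6, against 15.3% and 7.33% of all genes. Of the 20 members that fell in CD, 19 had a negative NP value too, SEC61A2 being the exception, and over all genes that fell in CD the share was 92.1%. The median NP difference was -0.10, and -0.06 over all genes. With the pool number as a block, 0 members passed in NP (19 at an unadjusted p under 0.05 in limma). The NP count was 2 without NPd14 pool 3, 1 without NPd14 pool 2 and 0 without any of the other 10 arrays.

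The test of whether the day effect differed between CD and NP found 0 members past the threshold in limma, with 13 (12.7%; 14.5% of all genes) at an unadjusted p under 0.05, and likewise 0% of all genes higher and 0% lower. SEC61A2 came closest in p, with a difference of -1.07 (SE 0.25, adjusted p = 0.230), as its day value was -0.81 in CD and 0.26 in NP. RAB9B had a difference of -2.77 (SE 0.65, adjusted p = 0.241), from -3.51 in CD and -0.74 in NP. SEC31A (-0.74, adjusted p = 0.271), RAB22A (-0.63, adjusted p = 0.290) and SSR2 (0.45, adjusted p = 0.299) followed. A call in CD without one in NP is therefore not shown to differ between the outcomes for any member. The day value was more negative in CD than in NP for 67 of 102 members (65.7%) and for 46% of all genes.

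**Figure D5:**
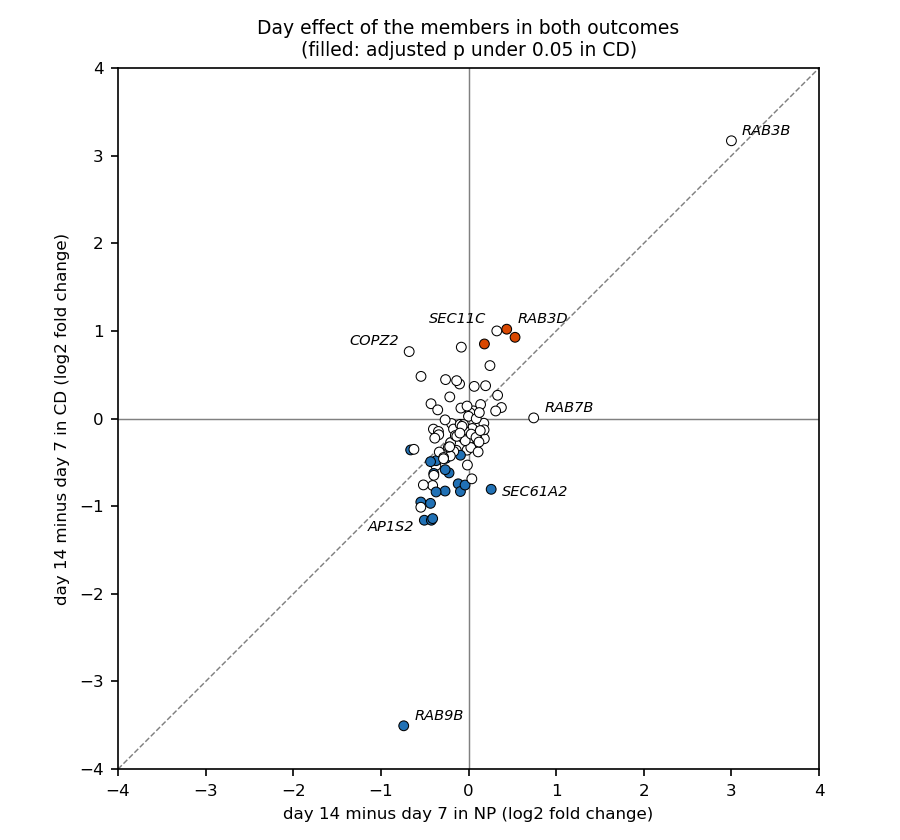
Day 14 minus day 7 in NP (x axis) against the same difference in CD (y axis), both as log2 fold change, for the 102 members. Blue points fell and orange points rose in CD with an adjusted p under 0.05, and the dashed line marks equal values. Most blue points lie below the dashed line (95%), RAB9B farthest, and RAB3B lies near the line at the upper right without passing in either outcome. Blue points were selected by their fall in CD. Of all genes selected in that way 97.6% had a more negative value in CD than in NP.

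At day 14 the outcomes were close. Of the members 0 passed in either direction in limma and 3 (2.94%; 6.34% of all genes) had an unadjusted p under 0.05, and of all genes 0% were higher and 0.0147% lower. The CDd14 pools lay above all NPd14 pools for 2 members (AP1M1 and SEC22A) and below them for 5 (COPZ2, RAB22A, SEC31A, SEC61A2 and TMED9), where 4.85% and 5.72% of all genes did so. TMED6 had the largest value, 0.92 (SE 0.39, adjusted p = 0.656), with 7.36, 6.38 and 6.06 in CDd14 and 6.06, 5.78 and 5.20 in NPd14. RAB11FIP5, an effector of RAB11, had 0.39 (adjusted p = 0.673), RAB11FIP2 -0.36 (adjusted p = 0.685), RAB19 -0.33 (adjusted p = 0.687) and TMED9 -0.26 (adjusted p = 0.673). The median difference of the 102 members was 0.03, and 0.03 over all genes as well.

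Other genes of the route, 159 measured ones in 6 lists, were counted in the same fit. Between days in CD 31 fell (19.5%) and 6 rose (3.77%), against 14.2% and 9.87% of all genes. At day 7, 2 were higher in CD (1.26%) and 1 was lower (0.629%), against larger shares of 1.46% and 2.02% of all genes. Of the 159, 0 passed at day 14, in NP between days, or for the difference of the day effects. In limma 9 (5.66%), 24 (15.1%) and 22 (13.8%) of them had an unadjusted p under 0.05 in those 3 comparisons, against 6.34%, 16.5% and 14.5% of all genes. The list of targeting and translocation genes held 8 fallen of 22 (36.4%) and 0 risen, with EMC2 (-0.69) and EMC8 (-0.69) of the membrane insertion complex and GET4 (-0.54), which handles tail-anchored proteins. ER to Golgi transport held 9 fallen (26.5%) and 2 risen of 34, with MIA3 (-0.99), which loads bulky cargo such as collagen, and the cargo receptors SURF4 (-0.68) and CNIH1 (-0.53). The Golgi coat list held 4 fallen of 24 (16.7%, near the share of all genes), ARCN1 (-0.93), the delta subunit of COPI, with ARFIP2 (-0.85), ARFRP1 (-0.61) and GOLGA1 (-0.56). Clathrin and sorting genes held 4 fallen of 27 (14.8%, also near it), AP1AR (-1.23), a partner of AP1, with the sorting nexins SNX1 (-0.93), SNX5 (-0.52) and SNX6 (-0.92).

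Of 33 SNARE genes 4 fell and 4 rose between days in CD (12.1% each), near the 14.2% and 9.87% of all genes. Among them were VAMP7 (-1.31) and NAPG (-0.38) on the lower side and SCFD2 (0.85) on the upper. In the list of RAB regulators and tethers 2 of 19 fell (10.5%, against 14.2% of all genes). RABGEF1, the exchange factor of RAB5, fell by 1.44 (SE 0.18, adjusted p = 0.00226). RABGGTA, a subunit of the enzyme that attaches the lipid anchor of RABs, fell by 0.84 (adjusted p = 0.0204). At day 7, RABGEF1 was higher in CD by 1.21 (adjusted p = 0.0219) and SNX1 by 0.85 (adjusted p = 0.0368), and the ER retrieval receptor KDELR1 was lower by 0.60 (adjusted p = 0.0368).

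Most members varied little. The range over the 12 arrays had a median of 0.83 on the log2 scale, against 1.04 over all genes, and exceeded 2 for 7 of 102 members (6.86%), against 19.2% of all genes. The members were also brighter, with group means of 10.21 to 10.42 against 9.03 to 9.10 over all genes. The part of this level in the ranges was not tested. CDd7 pool 1 held the highest value of 32 members (31.4%; 13.1% of all genes), and NPd14 pool 3 the lowest of 29 (28.4%; 21.8% of all genes). RAB1A and RAB14, of early secretory and endosomal traffic, stayed within 13.22 to 13.61 and 13.08 to 13.34 on all arrays. The 15 members that did not reach the filter were AP1G2, AP3B2, ARF5, COPG2, RAB26, RAB27B, RAB29, RAB37, RAB3A, RAB3C, RAB3GAP2, RAB40B, SEC14L2, SEC16B and SEC31B. The highest value any of them reached on any array ran from 1.61 for RAB3GAP2 to 4.24 for ARF5, so nothing is said here of their differences.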

How the data were processed

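The authors deposited log2 expression values of 24128 probe sets on 12 arrays. The submitters' processing notes name GCRMA (background correction, normalization between arrays, summary per probe set) and limma; no version or genome build is named in the sources used here. Pools come from the sample titles; 1 CDd14 title carries conflicting numbers, and the one after "rep" was used. After 112 control probe sets were left out, 13449 of 24016 had a log2 value above 4 on at least 3 arrays. Gene symbols are those of the platform annotation; for members, 170 of 170 probe sets matched by gene identifier and 0 symbols changed.

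Differences were fitted with limma 3.58.1 in R 4.3.3: a mean for each of the 4 groups, 8 residual degrees of freedom, 5 contrasts and default empirical Bayes. Two-sided p-values were adjusted by Benjamini-Hochberg across the 13449 kept probe sets, with a threshold of 0.05. A gene takes its kept probe set with the highest mean; 24 of 102 members have over 1. The script was run on simulated data with known changes before the real values. The number of arrays limits the precision. Deviations of same-numbered pools correlated over 0.1 for all 3 pools only in the NP day comparison (r 0.16, 0.62 and 0.51 over kept probe sets). Blocked values therefore stand beside its results. For pools 1, 2 and 3, r was -0.03, 0.36 and 0.27 between outcomes at day 7. It was 0.24, -0.07 and 0.23 between days in CD, and 0.10, -0.23 and 0.16 between outcomes at day 14. The blocked counts of these comparisons are given at the end. Nothing in the labels ties the numbers to shared animals or days.

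Members and lists were chosen with earlier results of these data known. Text members: up to 5 per family past the threshold with the smallest p, the smallest p of a family with none, the 5 smallest p where under 5 pass, the 10 largest changes and up to 3 per list of other route genes. Members, relatives and list genes described beyond that were chosen after their values were seen. Alternatives: filters on low values, trended and robust empirical Bayes, quantile normalization, pool number as a block, only the groups compared, mean of a gene's probe sets, a narrower reading of the symbols and each array left out. No sequences or coordinates were used, and the promoter motif search was not run.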

Additional observations from a re-analysis of the deposited data

Results flagged for a closer look

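For 3 members the pools of one comparison all lay on one side and those of the matching comparison all on the other, which singled them out; the difference was tested by the day by outcome contrast in limma and passed for none of them. SEC61A2 had a day value of -0.81 in CD and 0.26 in NP, and an outcome value of 0.76 at day 7 and -0.31 at day 14 (difference -1.07, adjusted p = 0.230). TMED9 had a day value of -0.27 in CD and 0.12 in NP (difference -0.39, adjusted p = 0.331). SEC22A had an outcome value of -0.42 at day 7 and 0.18 at day 14 (difference 0.60, adjusted p = 0.318).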

How the results depend on the processing

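The number of members past the threshold between outcomes at day 7 was 3 as reported, 0 with no filter on low values (32 at an unadjusted p under 0.05), 0 with the day 7 arrays alone (24 unadjusted), and 5 with trended and robust empirical Bayes; leaving out each array in turn gave 0 to 11. In NP between days it was 1 as reported and 0 with the stricter filter (15 unadjusted), with trended and robust empirical Bayes (17), or with the NP arrays alone (10); leaving out arrays gave 0 to 2. Between days in CD it was 23, from 16 to 25 under the settings that keep all pools and 11 to 26 with an array left out. It was 0 under every setting run at day 14 and for the day by outcome contrast. With the pool number as a replicate block the counts were 10 at day 7, 0 at day 14, 25 in CD and 0 in NP. Same-numbered deviations correlated from -0.26 to 0.62 (median 0.16) over 18 pairs of pools, 11 of them over 0.1 and 8 highest with their own number; all 3 pairs were over 0.1 for NPd7 with NPd14 and for no other groups compared. Of the values of named members, 1 turned sign: the day 14 outcome value of SPCS3, -0.20 as reported, 0.034 without NPd14 pool 2 and -0.46 without NPd14 pool 3, with none past the threshold. The causes were not tested. With 3 pools a group, a gene whose pools are widely spread within groups, such as RAB3B (SE 1.17), has a wide error.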
